A study of Homo sapiens with 36 samples.

Results

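A549 cells, a human lung adenocarcinoma line, were depleted of ATF4 or of ATF6 with small interfering RNA (siRNA) and then kept without glucose for 16 h, and the transcriptomes of the 2 knockdowns were set directly against each other. The comparison takes the 3 libraries labelled siATF4 and the 3 labelled siATF6 after 16 h of glucose deprivation, 6 of the 36 libraries of the series, chosen by their sample titles. Cells received 100 nM of the siRNA with DharmaFECT, were replated after a day and then changed to medium with no glucose (0 mM). Sister wells got 25 mM glucose, and both media held dialysed serum and glutamine. Each group has 3 biological replicates of 1 cell line that carries no other genetic change by the labels, so the spread is that between cultures. All cells compared were transfected with a silencing siRNA, and libraries with a non-targeting siRNA were left out, so a difference does not say which knockdown departs from unsilenced cells.

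ATF4 is the transcription factor of the integrated stress response. Its translation increases when the initiation factor eIF2 is phosphorylated, and it turns on genes for amino acid synthesis, amino acid import and tRNA charging, together with regulators of stress and death. ATF6 is a membrane-bound factor of the endoplasmic reticulum (ER) that is cut free when unfolded proteins gather there, and it turns on ER chaperones and folding enzymes. Loss of glucose is known to stress the ER, since protein glycosylation there uses sugar.

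The promoters of CRELD2 and HSP90B1, higher in siATF4 cells, and of ASNS and CARS1, lower in siATF4 cells, are shown because they hold the response elements textbook accounts assign to the 2 factors. Capitals mark an ER stress response element (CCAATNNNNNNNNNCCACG, read on either strand) in the first pair and a C/EBP-ATF response element (TGATGNAA, either strand) in the second. The sequences are RefSeq's, build GRCh38.p14, each on the strand of its gene. CRELD2 is chr22:49918384-49918683, plus strand, with the element at -80 to -62 from the start site. HSP90B1 is chr12:103930160-103930459, plus strand, with elements at -194 to -176 and -89 to -71. ASNS is chr7:97872359-97872658, minus strand, with the element at -68 to -61. CARS1 is chr11:3057374-3057673, minus strand, with the element at -2 to 6.
CRELD2: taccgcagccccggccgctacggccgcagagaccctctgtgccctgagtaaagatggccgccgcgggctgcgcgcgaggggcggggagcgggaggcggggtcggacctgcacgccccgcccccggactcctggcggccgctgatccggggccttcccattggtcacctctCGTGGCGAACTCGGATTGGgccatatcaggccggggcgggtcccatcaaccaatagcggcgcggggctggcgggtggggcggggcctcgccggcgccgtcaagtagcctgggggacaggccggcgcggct
HSP90B1: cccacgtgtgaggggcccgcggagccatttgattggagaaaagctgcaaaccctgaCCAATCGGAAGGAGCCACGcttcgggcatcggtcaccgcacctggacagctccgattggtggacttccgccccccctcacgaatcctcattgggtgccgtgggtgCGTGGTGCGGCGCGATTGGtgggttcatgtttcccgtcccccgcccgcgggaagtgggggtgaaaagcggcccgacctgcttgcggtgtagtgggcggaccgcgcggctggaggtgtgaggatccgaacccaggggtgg
ASNS: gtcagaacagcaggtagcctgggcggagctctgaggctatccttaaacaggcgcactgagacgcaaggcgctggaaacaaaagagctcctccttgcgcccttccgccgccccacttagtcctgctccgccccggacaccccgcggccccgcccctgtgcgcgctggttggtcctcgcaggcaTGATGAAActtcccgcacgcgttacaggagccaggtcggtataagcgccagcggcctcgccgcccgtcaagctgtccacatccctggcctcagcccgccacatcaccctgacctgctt
CARS1: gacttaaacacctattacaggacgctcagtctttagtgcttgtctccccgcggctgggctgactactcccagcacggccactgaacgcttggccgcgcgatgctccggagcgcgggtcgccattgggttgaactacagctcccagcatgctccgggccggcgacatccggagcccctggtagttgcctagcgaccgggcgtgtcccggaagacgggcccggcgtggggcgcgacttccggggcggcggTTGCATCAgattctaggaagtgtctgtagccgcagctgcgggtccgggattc

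The sum of expected counts per library was 41.5 to 53.1 M counts. Levels are given as CPM, the usual depth-normalised unit of RNA-seq, with library totals scaled by TMM factors, and "called" means an adjusted p under 0.05 in edgeR across the 17509 genes tested. The keratins KRT7, KRT8 and KRT18 and the enzyme ALDH1A1, markers of A549, were abundant in all 6 libraries. Of the same A549 list EPCAM was low, at 2.34 to 4.23 CPM in siATF4 cells and 1.77 to 2.62 CPM in siATF6 cells. CDH1 was at 7.93 to 17.9 CPM in siATF4 cells and 7.26 to 13.1 CPM in siATF6 cells. The alveolar markers SFTPA1, SFTPC and SCGB1A1 were at 0. Of the same alveolar list ABCA3, a lipid transporter, was at 38.1 to 51.7 CPM in siATF4 cells and 51 to 56.7 CPM in siATF6 cells (marker levels are without TMM scaling), and AGER at 1.09 to 2.05 CPM in siATF4 cells and 0.695 to 1.65 CPM in siATF6 cells. Of 14 markers of other cells, 7 were tested, and the summed level of the list was 64.2 to 120 CPM in siATF4 cells and 51.9 to 107 CPM in siATF6 cells. Most of that sum was CD68, a lysosomal protein used as a macrophage marker, at 45.7 to 105 CPM in siATF4 cells and 44.4 to 95.3 CPM in siATF6 cells. The siATF4 library of replicate 3 stood apart: its TMM factor was 0.818, against 0.948 to 0.974 in the other 5, and ribosomal protein mRNAs made up 90900 unscaled CPM, against 57100 to 64800 in those 5.

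The silenced genes separated the groups. ATF4 (chr22:39519695-39522685) had 179.8, 151 and 213 CPM in siATF4 cells, against 528, 569 and 577 CPM in siATF6 cells. Its log2 fold change, siATF4 over siATF6 here and below, was -1.62 (SE 0.15, edgeR adjusted p = 0.000761). ATF6 (chr1:161766320-161964070) had 67.4, 72.4 and 53.5 CPM in siATF4 cells, against 20.1, 13.6 and 10.8 CPM in siATF6 cells, a log2 fold change of 2.12 (SE 0.22, adjusted p = 0.00113). The groups did not overlap for either gene. In the sister wells with 25 mM glucose ATF6 differed by 2.47 (adjusted p = 0.00145), while ATF4 differed by -0.65 and missed the threshold (adjusted p = 0.214).

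**Figure D1:**
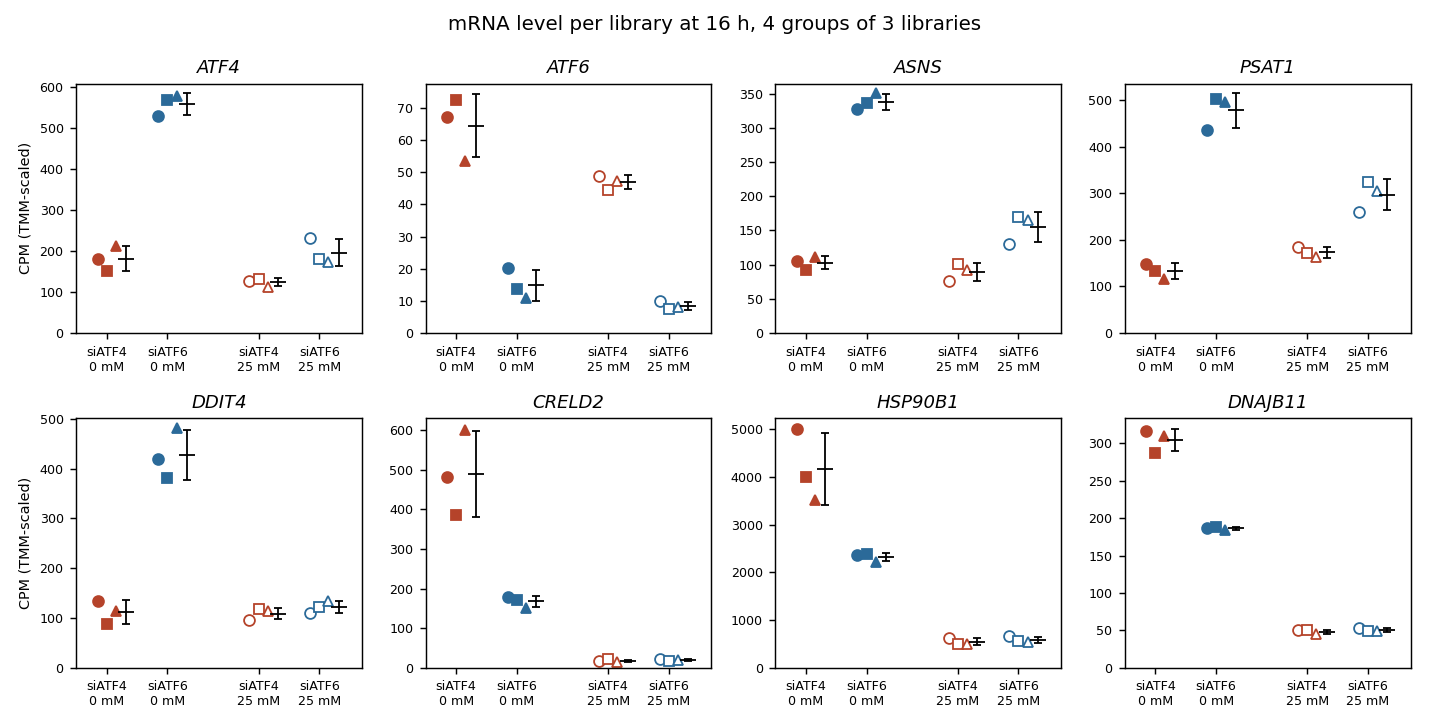
mRNA level (y axis, CPM scaled by TMM, from 0) of ATF4, ATF6 and 6 genes of their programmes in each library; circle, square and triangle are replicates 1, 2 and 3, filled symbols are 0 mM and open symbols 25 mM glucose, and black marks are mean ± SD (n = 3). Without glucose siATF4 libraries lie below siATF6 libraries for ATF4, ASNS, PSAT1 and DDIT4 and above them for ATF6, CRELD2, HSP90B1 and DNAJB11, with no overlap.

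Without glucose, 605 of 17509 genes (3.46%) were called: 315 (1.8%) were higher and 290 (1.66%) lower in siATF4 than in siATF6 cells. At least a 2-fold difference was seen in 141 of the higher and 115 of the lower genes. In none of the 605 did the 3 values of one group overlap those of the other; of all genes tested, 11.1% were higher and 11.6% lower without overlap. Protein-coding genes made up 94.9% of the higher and 92.1% of the lower genes, against 80.6% of all tested. The median log2 fold change of all genes tested was 0.0051.

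The count rests on the spread shared over 12 libraries, those of 0 mM and the 6 of the same knockdowns in 25 mM. With the replicate number as a block over both media, 1141 genes were called. Same-numbered siATF4 and siATF6 libraries correlated positively within each medium. Between media, siATF4 replicates 2 and 3 correlated at -0.666 and -0.204 with the library of the same number. With only the 6 libraries of 0 mM edgeR called 7, all lower in siATF4 cells, with 2037 genes at an unadjusted p under 0.05. Those 7 include ATF4, PSAT1, ASNS, DDIT4 and ADM2. Without siATF6 replicate 1, 2 or 3 of 0 mM the count was 398, 115 and 114; it was also below 400 without siATF4 replicate 3 (349) or siATF6 replicate 2 (329) or 3 (342) of 25 mM. Each such fit left out a single library, and all 605 genes kept their direction in each. The groups of these genes did not overlap, so leaving out 1 library could hardly turn a direction, and the kept directions are no test. Of the 86 called genes named by rule, 35 were called in all 12 such fits, and the other 51 lost their call without siATF6 replicate 2 or 3 of 0 mM. Called genes outside the rule, such as SDF2L1, ALDH1L2, SHMT2, PSPH, SLC7A11, TARS1 and NFE2L2, were not followed singly in these fits.

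**Figure D2:**
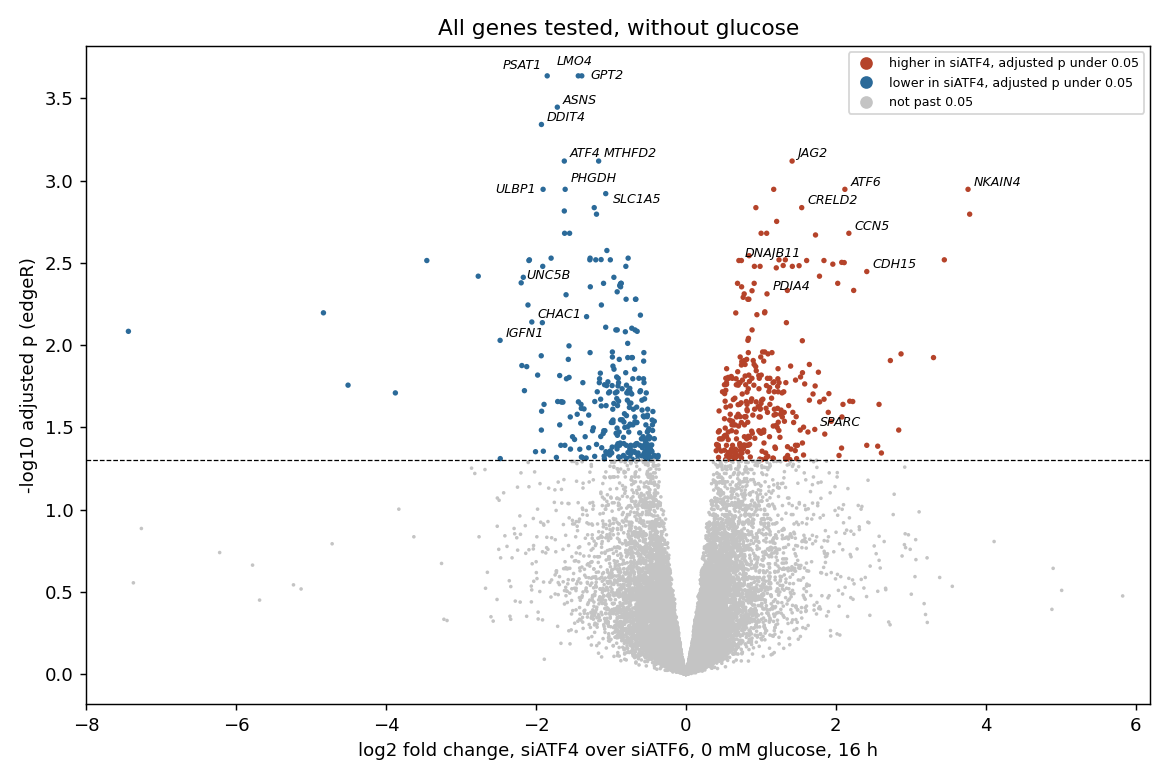
Each point is a gene tested without glucose; the x axis is the log2 fold change of siATF4 over siATF6 and the y axis -log10 of the edgeR adjusted p, with a dashed line at 0.05 (uncalled genes beyond the ends of the x axis are not drawn). Amino acid enzymes (PSAT1, GPT2, ASNS, PHGDH, MTHFD2) lie at the upper left; JAG2, ATF6, CRELD2 and NKAIN4 lead on the right.

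Counts of called list members, here and below, stand beside 1.8% of all genes tested called higher and 1.66% called lower. Of 19 genes of the ER HSP70 and HSP90 system, chaperones of the ER lumen, 5 were higher in siATF4 cells, 0 lower, and the median log2 fold change was 0.466. CRELD2, an ER stress-inducible protein of the ER lumen, had 482, 385 and 601 CPM in siATF4 cells, against 179, 171 and 152 CPM in siATF6 cells (log2 fold change 1.55, SE 0.17, adjusted p = 0.00146). DNAJB11, a co-chaperone of BiP, had 316, 288 and 310.1 CPM in siATF4 cells, against 187, 188 and 184 CPM in siATF6 cells (0.71, SE 0.09, adjusted p = 0.00306). All siATF4 libraries lay above all siATF6 libraries for both genes. HSP90B1, which encodes the ER HSP90 GRP94, had 4999.9, 3997 and 3519.8 CPM in siATF4 cells, against 2359.6, 2376 and 2218 CPM in siATF6 cells (0.85, adjusted p = 0.0166). SDF2L1, a partner of DNAJB11, averaged 348 ± 135 CPM in siATF4 cells and 159.8 ± 1.57 CPM in siATF6 cells (SD, n = 3 each; adjusted p = 0.0229), and CRELD1 averaged 43.6 ± 8.40 and 23.4 ± 2.21 CPM in siATF4 and siATF6 cells (adjusted p = 0.0124). The calls of CRELD2 and DNAJB11 held with each of the 12 libraries left out in turn. Those of HSP90B1 and CRELD1 were lost without siATF6 replicate 2 or 3 of 0 mM (highest adjusted p 0.0944 and 0.0776).

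The list also held members that were not called, on both sides of zero. HSPA5, the gene of BiP and the most abundant of the list, had 11717, 9387 and 9537 CPM in siATF4 cells, against 7594, 7304 and 7029 CPM in siATF6 cells. Its groups did not overlap, but the difference of 0.48 missed the threshold (adjusted p = 0.0553). MANF, a secreted ER protein, stood close to it, at 0.74 (adjusted p = 0.0509). HSPA13, another ER-associated HSP70, had 115, 103 and 49.5 CPM in siATF4 cells and 179, 167 and 174 CPM in siATF6 cells, a value of -0.96 that was not called (adjusted p = 0.0546). HSPA5, MANF and HSPA13 were picked after their values were seen. Over the list, 13 fold changes were positive and 6 negative.

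Among 23 protein disulfide isomerases and oxidases, 2 were higher and 1 lower, with a median of 0.104 that lay between 0.00199 and 0.138 without 1 library (lowest without siATF4 replicate 3, and 0.0232 without siATF4 replicate 1 and 0.0633 without siATF6 replicate 1, all of 0 mM). PDIA4, an isomerase, had 2981, 2147 and 2047 CPM in siATF4 cells, against 1228, 1126 and 1034 CPM in siATF6 cells (1.08, SE 0.16, adjusted p = 0.00488). PDIA6 was higher by 0.54 (adjusted p = 0.0238), and the prolyl isomerase FKBP14 lower at -0.97 (adjusted p = 0.0295). The call of PDIA4 held with every library left out, that of PDIA6 was lost without any siATF6 library of 0 mM or siATF6 replicate 2 of 25 mM, and that of FKBP14 without any of the 6 siATF6 libraries. A share of 25.2% of the exon sequence of PDIA6 overlaps ATP6V1C2 on the opposite strand, and reads without strand cannot be divided between them.

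The lectin chaperone CALR was the 1 called gene of its list of 16, at 0.59 (adjusted p = 0.0478), a call lost without any library other than siATF4 replicate 2 of 0 mM. Of 28 genes of ER-associated degradation, HERPUD1 and DERL3 were higher and DERL1 lower, and the list's median of 0.0134 lay between -0.0261 and 0.0369 without 1 library, negative without siATF4 replicate 2 or 3 of 0 mM. HERPUD1, a ubiquitin-like membrane protein, had 534, 602 and 666 CPM in siATF4 cells, against 417, 416 and 419 CPM in siATF6 cells (0.53, adjusted p = 0.0319). DERL3, a derlin, had 6.72, 4.18 and 7.28 CPM in siATF4 cells, against 1.70, 1.87 and 0.721 CPM in siATF6 cells (2.08, adjusted p = 0.0273); 77.0% of its exon sequence overlaps SMARCB1 on the opposite strand. The groups did not overlap for HERPUD1 or DERL3, but HERPUD1 lost its call without any of the 6 siATF6 libraries, siATF4 replicate 2 of 0 mM or siATF4 replicate 3 of 25 mM, DERL3 without any siATF6 library of 0 mM, and DERL1 without siATF6 replicate 2 or 3 of 0 mM.

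Of 37 COPII and COPI genes of vesicle transport between ER and Golgi, 1 was called and 36 were not, where 3.46% of all genes tested were called. In all, 31 had a negative fold change and 17 were lower without overlap, against 11.6% of all genes, and BET1, a SNARE of ER-to-Golgi transport, was the called one, lower in siATF4 cells (42.5 ± 2.32 CPM in siATF4 cells and 62.8 ± 4.76 CPM in siATF6 cells, SD, n = 3 each; adjusted p = 0.016). The median was -0.228, and -0.156 without siATF4 replicate 3. Of 38 genes of ER translocation and N-glycosylation, ALG2, a mannosyltransferase, and SRPRA, a subunit of the signal recognition particle receptor, were lower and 0 higher. The call of SRPRA was lost without any of the 6 siATF6 libraries, siATF4 replicate 2 of 0 mM or siATF4 replicate 3 of 25 mM. That of BET1 was lost without siATF6 replicate 2 or 3 of 0 mM. Among 21 sensors and factors of the unfolded protein response, ATF6 was higher and its homologue ATF6B lower (-0.56, adjusted p = 0.0125), and XBP1 was not called (-0.27, adjusted p = 0.162). ATF6B also lost its call without siATF6 replicate 2 or 3 of 0 mM.

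Of 17 genes of serine, glycine and one-carbon metabolism, 6 were lower in siATF4 cells, 2 were higher and 9 were not called. PSAT1 (chr9:78297125-78330093), the transaminase of serine synthesis, had 149, 133 and 115 CPM in siATF4 cells, against 435, 503 and 495 CPM in siATF6 cells (-1.85, SE 0.13, adjusted p = 0.000231). PHGDH, the first enzyme of that pathway, had 54.6, 45.3 and 68.7 CPM in siATF4 cells, against 157, 181 and 176 CPM in siATF6 cells (-1.61, adjusted p = 0.00113). MTHFD2, a mitochondrial folate dehydrogenase, had 358, 337 and 277 CPM in siATF4 cells, against 752, 713 and 713 CPM in siATF6 cells (-1.16, adjusted p = 0.000761). All siATF4 libraries lay well below all siATF6 libraries for each of these 3 genes, and each call held with any library left out. The mitochondrial enzymes ALDH1L2 (-1.66) and SHMT2 (-0.90) and the phosphatase PSPH (-0.68) were lower as well (adjusted p = 0.0221, 0.0159 and 0.014). TYMS, which makes thymidylate, was higher, at 107 ± 25.0 CPM in siATF4 cells and 51.7 ± 3.98 CPM in siATF6 cells (SD, n = 3 each; adjusted p = 0.00627), and so was GLDC of the glycine cleavage system (0.81, adjusted p = 0.0122). The call of GLDC was lost without siATF6 replicate 2 or 3 of 0 mM. Of the exon sequence, 33.2% of MTHFD2 overlaps SLC4A5 and 46.6% of TYMS overlaps ENOSF1, both on the opposite strand.

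Of 21 genes of asparagine, transaminase, glutamine and proline metabolism, 4 were lower, 0 higher and 17 not called. ASNS (chr7:97851677-97872542), asparagine synthetase, had 106, 91.8 and 111 CPM in siATF4 cells, against 327, 336 and 351 CPM in siATF6 cells (-1.72, SE 0.14, adjusted p = 0.000358). GPT2, the mitochondrial alanine transaminase, had 23.4, 19.5 and 20.3 CPM in siATF4 cells, against 53.2, 55.9 and 56.6 CPM in siATF6 cells (-1.39, SE 0.11, adjusted p = 0.000231). Neither gene's groups overlapped, and both were called with each library left out. GOT1, the cytosolic aspartate transaminase, was lower, with a log2 fold change of -0.92 (adjusted p = 0.00808) and CBS, which condenses serine with homocysteine, at -1.09 (adjusted p = 0.0331). The call of CBS was lost without siATF6 replicate 2 or 3 of either medium, siATF4 replicate 1 or 2 of 0 mM or siATF4 replicate 3 of 25 mM. In the reference annotation 44.6% of the exon sequence of ASNS lies in a second annotated gene on the same strand.

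Of 20 amino acid transporters tested, 5 were lower, 0 higher, and the median was -0.278 (-0.17 without siATF4 replicate 3 and -0.456 without siATF4 replicate 1 of 0 mM). SLC1A5, a glutamine and neutral amino acid carrier, had 343, 369.7 and 395 CPM in siATF4 cells, against 711, 816 and 798 CPM in siATF6 cells (-1.07, adjusted p = 0.0012). SLC7A11, the cystine importer, had 211, 259 and 117 CPM in siATF4 cells, against 505, 533 and 506 CPM in siATF6 cells (-1.40, adjusted p = 0.0242). The siATF4 values of SLC7A11 spread more than 2-fold, yet all stayed below the siATF6 values. SLC1A4 (-1.05), SLC6A9 (-1.01) and SLC43A1 (-1.43), carriers of alanine and serine, of glycine and of branched-chain amino acids, were also lower (adjusted p = 0.00266, 0.00303 and 0.0221). SLC43A1 lost its call without any siATF6 library or siATF4 replicate 2 of 0 mM.

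Of 20 cytosolic aminoacyl-tRNA synthetases, which load amino acids onto tRNAs, 5 were lower and 0 higher, with a median of -0.245. CARS1, for cysteine, had 105, 106 and 112 CPM in siATF4 cells, against 175, 185 and 192 CPM in siATF6 cells (-0.77, SE 0.10, adjusted p = 0.00296). GARS1, for glycine, had 345, 332 and 339.9 CPM in siATF4 cells, against 534, 533 and 546 CPM in siATF6 cells (-0.67, adjusted p = 0.00526). The replicates of these 2 genes lay close together within each group. EPRS1 (-0.91), MARS1 (-0.77) and TARS1 (-0.39, edgeR adjusted p = 0.0479) were lower too. The calls of EPRS1 and MARS1 were lost without siATF6 replicate 2 or 3 of 0 mM, and that of TARS1 was not followed in such fits. Of 17 mitochondrial synthetases edgeR called 0, with 2 at an unadjusted p under 0.05 and 1 called by DESeq2, and their median was 0.0667 (0.0123 and 0.101 without siATF4 replicate 2 and 3 and 0.0436 without siATF6 replicate 1 of 0 mM).

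Stress effectors downstream of ATF4 gave the lowest median of the lists, -0.887 over 21 genes, with 9 lower and 0 higher; ULBP1, PRDM16, PTPDC1 and KLHDC7B had been put on that list from earlier results on these libraries. DDIT4, the mTORC1 inhibitor REDD1, had 135, 87.5 and 114 CPM in siATF4 cells, against 419, 381 and 481 CPM in siATF6 cells (-1.93, SE 0.17, adjusted p = 0.000456). CHAC1, which degrades glutathione, had 12.9, 6.01 and 10.9 CPM in siATF4 cells, against 52.5, 31.97 and 39.6 CPM in siATF6 cells (-2.06, SE 0.32, adjusted p = 0.00723). SESN2, a leucine sensor that restrains mTORC1, had 67.0, 48.3 and 48.9 CPM in siATF4 cells, against 160.2, 118 and 119 CPM in siATF6 cells (-1.28, adjusted p = 0.00442). For all 3 the lowest siATF6 library exceeded the highest siATF4 library, and each call held with any library left out. ULBP1, a ligand of the natural killer receptor NKG2D, had 4.54, 5.69 and 3.27 CPM in siATF4 cells, against 17.4, 17.4 and 15.9 CPM in siATF6 cells (-1.90, adjusted p = 0.00113). VLDLR, a lipoprotein receptor, was lower, with a log2 fold change of -1.32 (adjusted p = 0.00671). Of the exon sequence of DDIT4, 41.2% overlaps DDIT4-AS1 on the opposite strand.

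TRIB3, a pseudokinase and textbook ATF4 target of the same list, had 537, 553 and 773 CPM in siATF4 cells and 696, 664 and 655 CPM in siATF6 cells. The groups overlapped, and the difference of -0.11 was not called (adjusted p = 0.758). Among ATF4 and 16 relatives of the bZIP class, ATF4, ATF3, NFE2L1, NFE2L2 and MAFG were lower and 0 higher. ATF3 had 51.2, 36.5 and 39.0 CPM in siATF4 cells, against 120.1, 76.9 and 81.8 CPM in siATF6 cells (-1.14, adjusted p = 0.0213). DDIT3, which encodes the death-associated factor CHOP, had 308, 269.6 and 477 CPM in siATF4 cells and 217, 199.9 and 219 CPM in siATF6 cells, a value of 0.73 that was not called (adjusted p = 0.0955) although the groups did not overlap. TRIB3 and DDIT3 were picked after their values were seen. The call of ATF3 was lost without siATF4 replicate 2 or any siATF6 library of 0 mM, that of NFE2L1 without any siATF6 library of 0 mM, and that of MAFG without any library other than siATF4 replicate 2 of 0 mM.

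Secreted stress signals were lower in 3 of 14 genes tested, with 0 higher. ADM2, a peptide hormone of the calcitonin family, had 6.51, 5.22 and 5.6003 CPM in siATF4 cells, against 21.9, 21.9 and 21.4 CPM in siATF6 cells (-1.91, SE 0.26, adjusted p = 0.00332). STC2, stanniocalcin 2, had 274, 128 and 141 CPM in siATF4 cells, against 652, 492 and 518 CPM in siATF6 cells (-1.61, adjusted p = 0.0406). VEGFA, the angiogenic growth factor, was at 51.9 ± 13.8 CPM in siATF4 cells and 107 ± 13.1 CPM in siATF6 cells (SD, n = 3 each; adjusted p = 0.0167). None of these genes' groups overlapped. The call of ADM2 held with each library left out; that of VEGFA was lost without siATF6 replicate 2 or 3 of 0 mM, and that of STC2 without any siATF6 library of 0 mM, siATF6 replicate 2 or 3 of 25 mM, siATF4 replicate 2 or 3 of 0 mM or siATF4 replicate 3 of 25 mM.

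**Figure D3:**
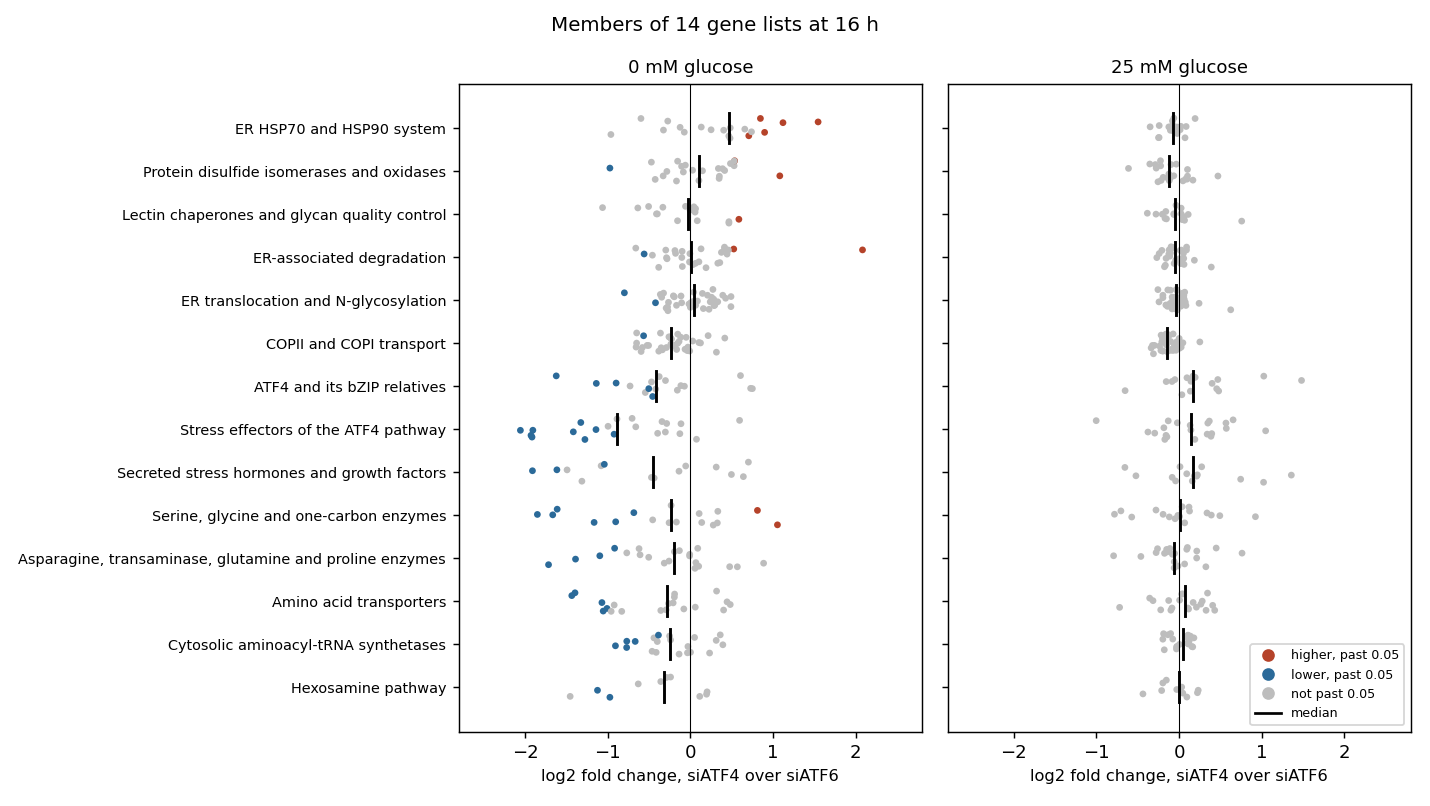
Log2 fold change of siATF4 over siATF6 (x axis) of each tested member of 14 gene lists (rows) in 0 mM (left) and 25 mM glucose (right); red and blue points are called higher and lower in edgeR, grey points are not, and black bars are list medians. In 0 mM the median of the stress effectors is -0.887 and that of the ER HSP70 and HSP90 system 0.466. In 25 mM they are 0.144 and -0.0738, with no called member. Some stress effectors were put on their list from earlier results on these libraries.

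Of 30 death receptor and BCL2 family genes, TNFRSF10B, the TRAIL receptor DR5, CASP10 and MCL1 were lower and BOK higher. TNFRSF10B had 482, 469.6 and 343 CPM in siATF4 cells, against 736, 743 and 737 CPM in siATF6 cells (-0.78, adjusted p = 0.0119). MCL1, an inhibitor of apoptosis, had 225, 187 and 137 CPM in siATF4 cells, against 336, 324 and 382 CPM in siATF6 cells (-0.92, adjusted p = 0.0211). Both groups of each gene were apart. GFPT1, which commits sugar to the hexosamine pathway, had 322, 335 and 209 CPM in siATF4 cells, against 549.4, 552 and 598 CPM in siATF6 cells (-0.97, adjusted p = 0.0134), and OGT, which attaches N-acetylglucosamine to proteins, was lower, with a log2 fold change of -1.12 (adjusted p = 0.042). These were the 2 called of 10 hexosamine genes. The calls of TNFRSF10B, MCL1 and GFPT1 were lost without siATF6 replicate 2 or 3 of 0 mM, and that of CASP10 without any of the 6 siATF6 libraries, siATF4 replicate 2 or 3 of 0 mM or siATF4 replicate 3 of 25 mM. OGT lost its call without any siATF6 library of 0 mM, siATF6 replicate 2 or 3 of 25 mM, or siATF4 replicate 1 or 3 of either medium, and BOK without siATF6 replicate 2 or 3 of 0 mM, any siATF6 library of 25 mM, siATF4 replicate 1 or 3 of 0 mM or siATF4 replicate 3 of 25 mM.

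Of 23 glycolysis genes edgeR called 0 (7 at an unadjusted p under 0.05, and 1 called by DESeq2). It also called 0 of 24 cholesterol synthesis genes (2 unadjusted, 0 by DESeq2), 0 of 25 cytokine and NF-kB genes (1 and 1), 0 of 20 interferon genes (1 and 1), 0 of 26 genes of G2 and mitosis (5 and 2) and 0 of 16 cytosolic heat shock genes (6 and 0). Of 28 S phase genes, RRM2 and GINS1 were higher, where 1.8% of all genes tested were called higher. Both calls were lost without siATF6 replicate 2 or 3 of 0 mM. HMOX1, heme oxygenase, led the 3 lower of 23 NRF2 and glutathione genes, at 359 ± 91.4 CPM in siATF4 cells and 816 ± 198 CPM in siATF6 cells (SD, n = 3 each; adjusted p = 0.0192, a call lost without any siATF6 library of 0 mM). All 43 ribosomal protein genes had a positive fold change and edgeR called 0 (1 unadjusted, 0 by DESeq2); their median of 0.266 became -0.0903 without siATF4 replicate 3 and 0.424 without siATF4 replicate 2 of 0 mM. The 31 nuclear respiratory chain genes had a median of 0.343, and 0.0413 without siATF4 replicate 3 of 0 mM.

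The 12 largest differences upward include ATF6 and DERL3, described above, and genes of other kinds. Among them NKAIN4, which interacts with the sodium pump, had 5.71, 7.43 and 14.9 CPM in siATF4 cells, against 0.738, 0.735 and 0.577 CPM in siATF6 cells (3.77, SE 0.39, adjusted p = 0.00113). CCN5, a matricellular protein, had 80.1, 92.4 and 149.8 CPM in siATF4 cells, against 22.7, 27.4 and 21.2 CPM in siATF6 cells (2.18, adjusted p = 0.00209). CDH15, a cadherin, had 23.1, 17.3 and 36.02 CPM in siATF4 cells, against 6.00, 4.57 and 3.77 CPM in siATF6 cells (2.41, adjusted p = 0.00357). In all 3 genes siATF4 replicate 3 was the highest library, and the calls held without it. SULT2B1, a cholesterol sulfotransferase, spread from 4.41 to 24.0 CPM in siATF4 cells, against 1.82 to 2.84 CPM in siATF6 cells (2.56, adjusted p = 0.0411), and lost its call without any of the 6 siATF6 libraries, siATF4 replicate 2 or 3 of 0 mM or siATF4 replicate 3 of 25 mM. The others were ANKRD2, ATF6, SLC22A31, MYL9, DERL3, BEAN1, SAMD11 and CACNG4, between 1.91 and 2.19. ANKRD2 and CACNG4 lost their call without any siATF6 library of 0 mM, and SAMD11 also without siATF4 replicate 3 of either medium or siATF6 replicate 2 of 25 mM. MYL9 lost its call without siATF6 replicate 2 or 3 of 0 mM.

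JAG2, a NOTCH ligand, had the smallest adjusted p of the higher genes, with 53.4, 60.1 and 69.6 CPM in siATF4 cells, against 23.6, 22.5 and 22.4 CPM in siATF6 cells (1.42, SE 0.14, adjusted p = 0.000761). Of 29 matrix, integrin and adhesion genes, COL4A1, COL4A2, COL1A1 and SPARC were higher and 0 lower. The median of that list was 0.0742, with 17 positive and 12 negative fold changes. It was -0.057 without siATF4 replicate 1, -0.109 without siATF4 replicate 2 and 0.255 without siATF4 replicate 3 of 0 mM. COL4A2, a basement membrane collagen, had 326, 369 and 241 CPM in siATF4 cells, against 193, 170.3 and 144 CPM in siATF6 cells (0.88, adjusted p = 0.0159). SPARC, a collagen-binding protein, had 28.1, 21.8 and 22.3 CPM in siATF4 cells, against 10.5, 5.44 and 6.00 CPM in siATF6 cells (1.72, adjusted p = 0.0325). The groups of these genes did not overlap. The call of COL4A2 was lost without siATF6 replicate 2 or 3 of 0 mM, that of COL4A1 also without siATF4 replicate 2 and that of COL1A1 also without siATF4 replicate 2 or 3 of 0 mM. SPARC lost its call without siATF6 replicate 2 or 3 of 0 mM, any siATF4 library of 0 mM or siATF4 replicate 3 of 25 mM. The marker ACTA2 lost its call without siATF6 replicate 2 or 3 of 0 mM. ACTA2 and COL1A1, which also mark fibroblasts and smooth muscle, were the 2 called of the 7 tested markers of other cells, while PTPRC, VWF, PECAM1 and DCN stayed at or below 0.121 CPM in all 6 libraries and CD68 was at the levels given above. The part of other cells in these genes was not tested, and in bulk RNA a change in the number of cells of a type and a change in RNA per cell cannot be told apart.

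Among the 12 largest downward, outside the lists above, were IGFN1, UNC5B, SMOC1, LAMP3 and KIF21B. UNC5B, a netrin receptor, had 1.53, 1.66 and 1.24 CPM in siATF4 cells, against 8.19, 6.10 and 6.10 CPM in siATF6 cells (-2.20, adjusted p = 0.00418). KIF21B, a kinesin, had 4.14, 5.48 and 2.71 CPM in siATF4 cells, against 14.5, 14.3 and 14.2 CPM in siATF6 cells (-1.80, adjusted p = 0.00296). LMO4, a LIM-only transcriptional cofactor, had 15.4, 13.7 and 13.7 CPM in siATF4 cells, against 40.4, 37.9 and 37.7 CPM in siATF6 cells (-1.44, SE 0.11, adjusted p = 0.000231). The 2 groups lay far apart for these genes, and LAMP3 lost its call without any siATF6 library or siATF4 replicate 2 of 0 mM.

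With 25 mM glucose the same knockdowns gave fewer calls in the fit of 12 libraries. There 11 genes (0.0628%) were called in edgeR, 9 higher and 2 lower in siATF4 cells, and 1116 genes had an unadjusted p under 0.05. All 11 were also called, in the same direction, without glucose. They include ATF6, the noncoding gene AL121827.2, KIRREL3, DOCK2, CDH4, LEPR, CCDC80, SYNDIG1, CST1 and IL2RG. CDH4, a cadherin, differed by 2.09 in 25 mM (adjusted p = 0.00145) and by 1.30 in 0 mM (adjusted p = 0.00328). IL2RG, a cytokine receptor chain, differed by -3.35 in 25 mM (adjusted p = 0.00344) and by -2.17 in 0 mM (adjusted p = 0.00387). When each medium was fitted with its own 6 libraries alone, the order turned, with 7 genes called in 0 mM and 14 in 25 mM. With the replicate block 24 genes were called in 25 mM; without siATF4 replicate 3 of 0 mM the count was 41. It was 3 and 2 without siATF4 replicate 2 and 3 of 25 mM, 7, 3 and 4 without siATF6 replicate 1, 2 and 3 of 25 mM, and 6 without siATF6 replicate 2 of 0 mM.

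The genes called without glucose kept their sign in 25 mM more often than not: 270 of the 315 higher (85.7%) and 222 of the 290 lower (76.6%). Their median fold change was 0.938 in 0 mM and 0.371 in 25 mM for the higher genes, and -0.9 in 0 mM and -0.183 in 25 mM for the lower ones. The genes were selected on their 0 mM values, so a smaller value in 25 mM is partly built into that selection. The stress effectors, at -0.887 in 0 mM, had a median of 0.144 in 25 mM, and the ER HSP70 and HSP90 system had 0.466 in 0 mM and -0.0738 in 25 mM. ULBP1, PRDM16, PTPDC1 and KLHDC7B were put among the stress effectors from earlier results on these libraries. The contrast of that list between media is therefore partly built in.

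A test of the difference itself, the 0 mM fold change minus the 25 mM one, called 11 genes (0.0628%), 2 positive and 9 negative, with 1140 at an unadjusted p under 0.05. CRELD2 and JAG2 were the positive ones: CRELD2 was at 482, 385 and 601 CPM in siATF4 cells against 179, 171 and 152 CPM in siATF6 cells in 0 mM, but at 17.7, 20.9 and 15.7 CPM against 21.8, 17.9 and 18.7 CPM in 25 mM (difference 1.65, adjusted p = 0.0364). ADM2 had the largest negative difference, -2.93 (adjusted p = 0.0252), with 0.939, 1.37 and 1.80 CPM in siATF4 cells and 0.404, 0.848 and 0.757 CPM in siATF6 cells in 25 mM, a reversal of the order seen without glucose. ULBP1, ATF3, SESN2, DDIT4, GPT2, LMO4, MTHFD2 and SLC1A5 were the other negative ones. ATF4 itself (-0.97, adjusted p = 0.19) and ASNS (-0.92, adjusted p = 0.184) were not called in this test. The count was 0 without any one of the 3 siATF6 libraries of 0 mM, the 3 siATF6 libraries of 25 mM or siATF4 replicate 2 or 3 of 25 mM. It was 7 without siATF4 replicate 2 of 0 mM and 31 without replicate 3. With the transfected culture, taken from the replicate number, as a block it was 0, with 1129 genes at an unadjusted p under 0.05. That block pairs the media by number, which siATF4 replicates 2 and 3 do not bear out (correlations of -0.666 and -0.204).

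**Figure D4:**
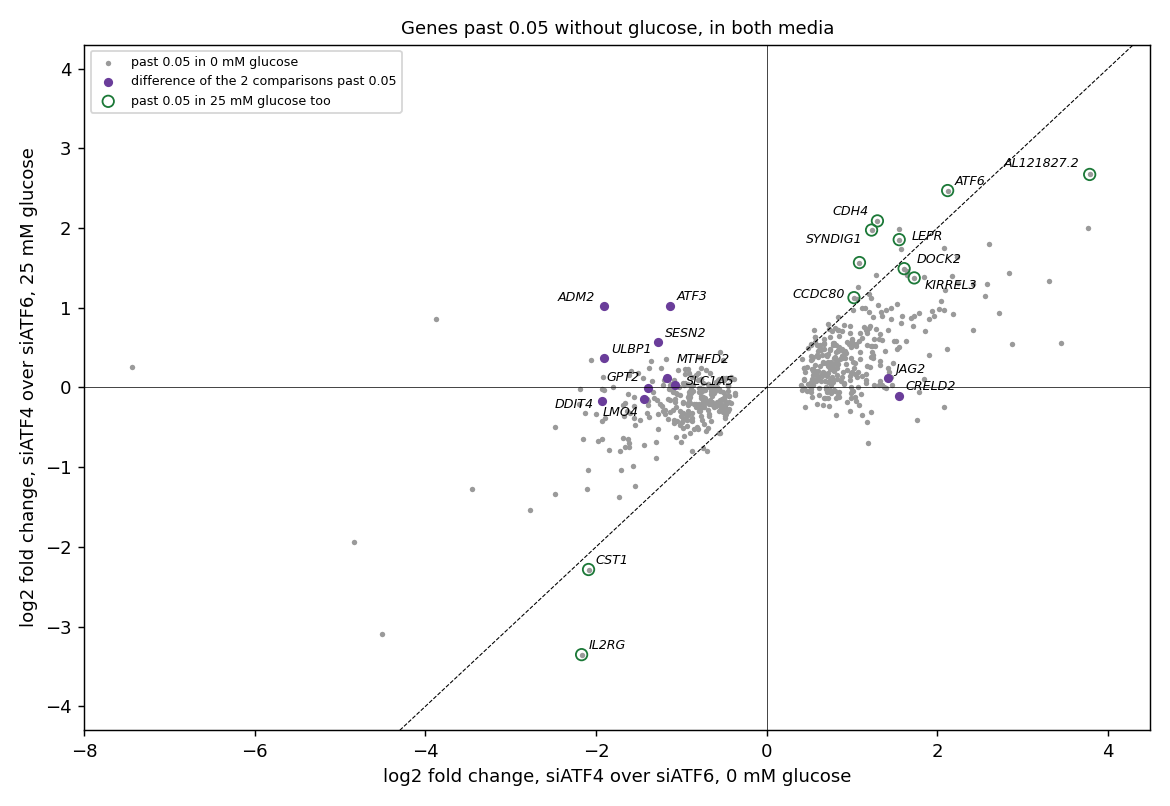
Log2 fold change of siATF4 over siATF6 in 0 mM (x axis) and 25 mM glucose (y axis) for the 605 genes called without glucose, with a dashed line of equal values. Purple points are the 11 genes whose difference between media was called, close to or across zero on the y axis, and green rings are the 11 genes called in 25 mM too.

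Response elements were counted in the promoters of RefSeq (250 bases before to 50 after the start), which were found for 11697 of the 17509 genes tested. The ER stress response element was present in 15 (0.128%) of those, in 4 of 231 higher genes (1.73%), CRELD2, HSP90B1, CALR and ALG12, and in 1 of 210 lower genes (0.476%), FICD, an ER enzyme that modifies BiP. CRELD2 and ALG12 are neighbours on opposite strands, and 3.25% of the exon sequence of CRELD2 overlaps ALG12. The element is read on either strand, so their matches may be the same site, counted for both genes. This was not tested. The C/EBP-ATF response element was present in 206 (1.76%) of the tested genes, in 4 of 231 higher (1.73%) and in 15 of 210 lower genes (7.14%). The 15 include ASNS, CARS1, MARS1, TARS1, CHAC1, KLHDC7B, GOT1, ATF3 and PPP1R15B. The 4 higher genes with it were HERPUD1, described above, LINC02086, SLC39A11 and DCDC2. Of 16 cytosolic synthetases with a promoter 6 held it (37.5%), of 14 mitochondrial synthetases 1 (7.14%). The XBP1-type element TGACGTGG, either strand, was in 108 tested genes (0.923%), in 4 of 231 higher (1.73%) and in 0 of 210 lower genes. Those 4 were LPCAT1, ITGA11, SFRP4 and SLC22A17. A match shows these letters in this window and no binding.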

How the data were processed

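Poly(A) RNA of A549 cells was sequenced unstranded as paired ends, per the labels' protocols. Reads were handled with fastp, STAR and RSEM on GRCh38, per the submitters' processing notes, with versions and gene annotation not given in the sources used here. The deposited table holds RSEM expected counts for 60662 gene IDs, as the authors made them. They were rounded, matched to samples by the column names in the labels, and tested in edgeR 4.0.16 (R 4.3.3): filterByExpr by group (minimum count 10, total 15), TMM factors, robust quasi-likelihood F tests, Benjamini-Hochberg adjustment over 17509 genes at 0.05. The fit held 12 libraries, siATF4 and siATF6 at 16 h in 0 and 25 mM glucose. SE is the fold change over the root of F. The steps were tested on simulated data.

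Genes were named by rule: both targets, the 12 largest called changes per direction with at least 5 CPM in a group and no overlap, the 4 members of smallest adjusted p in each list with a call plus called members that go against the rest, and the 6 largest called differences between media per direction. Other genes, such as the 25 mM calls, LMO4, MTHFD2 and SLC1A5 among the differences, XBP1, FICD, HCAR2, HCAR3, FUT1 and further called list members, were picked after their values were seen. The members and lists were chosen with earlier results of these data known.

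Deviations from the group means of same-numbered siATF4 and siATF6 libraries correlated at 0.784, 0.181 and 0.453 in 0 mM and 0.512, 0.26 and 0.811 in 25 mM (11107 genes). The numbers were taken as pairs, which rests on the data, not on a stated design. Between 0 and 25 mM, same-numbered libraries correlated at 0.793, -0.666 and -0.204 for siATF4 and 0.526, 0.521 and 0.32 for siATF6. The replicate block and the block per transfected culture join both media, which the siATF4 values of replicates 2 and 3 do not bear out. In siATF4 cells replicate 2 of 0 mM best matched replicate 3 of 25 mM, and replicate 3 of 0 mM best matched replicate 2. Alternatives were DESeq2 1.42.0, median-of-ratios factors, no filter, 18 libraries of 16 h, only the libraries compared, blocks, and each library left out. Exon overlaps come from GENCODE 29. No library was a copy of another: mean chi-square per gene between replicates was at least 8.44, where counting noise gives about 1. In siATF6 cells replicates 2 and 3 were closer to each other than to replicate 1. In 0 mM the value was 9.43 between replicates 2 and 3, against 91.6 and 104 with replicate 1. In 25 mM it was 8.44, against 50.7 for both pairs with replicate 1. Some items are not reported here.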

Additional observations from a re-analysis of the deposited data

Results flagged for a closer look

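For 11 genes the siATF4 against siATF6 difference in 0 mM glucose differed from that in 25 mM glucose by a direct edgeR test of the 2 differences on the log2 scale. Positive values were found for CRELD2 (1.65, adjusted p = 0.0364) and JAG2 (1.3, adjusted p = 0.0364). Negative values were found for ADM2 (-2.93), ULBP1 (-2.27), ATF3 (-2.16), SESN2 (-1.84), DDIT4 (-1.75), GPT2 (-1.38), LMO4 (-1.28), MTHFD2 (-1.28) and SLC1A5 (-1.1), with adjusted p between 0.0196 and 0.0465. The fold changes in 0 mM and 25 mM were -1.14 and 1.03 for ATF3, -1.91 and 1.02 for ADM2, and -1.28 and 0.57 for SESN2; their 25 mM values were not called (adjusted p = 0.214, 0.331 and 0.468).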

How the results depend on the processing

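No called gene named by rule reversed its direction under an alternative, but some list medians did: that of ribosomal protein genes (0.266) was -0.0903 and that of ER-associated degradation (0.0134) -0.0261 without siATF4 replicate 3 of 0 mM, and that of disulfide isomerases (0.104) -0.0191 in the block without that library. The groups of the called genes did not overlap, so leaving out 1 library could hardly turn their direction. Further medians changed sign between fits without 1 library. Examples are cytokines and NF-kB (-1.81 to 0.767), interferon response (-0.223 to 0.386) and matrix genes (-0.109 to 0.255). Those of glutathione and NRF2 targets (-0.163 to 0.133) and of ER translocation genes (-0.0303 to 0.0631) did too. Calls in 0 mM (605; 315 higher, 290 lower in siATF4) became 1692 (962, 730) with DESeq2, 1488 (885, 603) with 18 libraries, 1141 (590, 551) with the replicate block and 7 (0, 7) with only the 6 libraries. Leaving out a library gave 114 to 828 (49 to 448 higher, 63 to 380 lower). Calls in 25 mM (11; 9, 2) became 220 (134, 86) with DESeq2, 64 (48, 16) with 18 libraries, 24 (18, 6) with the block and 17 (15 higher) with no filter, and 2 to 41 (2 to 32, 0 to 9) without a library. Called differences between media (11; 2 positive, 9 negative) became 191 (89, 102) with DESeq2, 64 (27, 37) with 18 libraries, 4 positive with the replicate block, 0 (0, 0) with a block per transfected culture, and 0 to 31 (0 to 10, 0 to 21) without a library. Chosen after seeing the data, the block without siATF4 replicate 3 of 0 mM gave 1186 (604, 582), 297 (202, 95) and 83 (25, 58), and 18 libraries without it gave 994 (550, 444), 209 (141, 68) and 88 (35, 53). The causes were not tested. All 86 called genes named by rule stayed called with the block, DESeq2 and 18 libraries, 77 with no filter and 5 with only the 6 libraries. With only each medium's own 6 libraries 25 mM gave 14. Median-of-ratios factors gave 609, 8 and 10.

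Depth limits the scarcest genes: a gene below 1 CPM rests on few reads in libraries of 41.5 to 53.1 M counts.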

Other observations

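Some scarce transcripts were lower in siATF4 cells without glucose. HCAR2, a receptor for niacin and ketone bodies, had 0.441, 0.170 and 0.206 CPM in siATF4 cells, against 3.47, 2.84 and 2.84 CPM in siATF6 cells. Its neighbour HCAR3 had 0.147, 0.0425 and 0 CPM in siATF4 cells, against 2.14, 1.93 and 1.98 CPM in siATF6 cells; the pair is nearly identical in sequence, so reads may be shared between them. FUT1, a fucosyltransferase, had 0.210, 0.149 and 0.324 CPM in siATF4 cells, against 1.75, 4.03 and 4.14 CPM in siATF6 cells (edgeR adjusted p = 0.0195). The groups did not overlap for HCAR2, HCAR3 or FUT1. PERP, a p53-induced membrane protein, was among the higher genes, at 181 ± 3.30 CPM in siATF4 cells and 80.1 ± 13.6 CPM in siATF6 cells (SD, n = 3 each, edgeR adjusted p = 0.00113). HCAR2, HCAR3, FUT1 and PERP were picked after their values were seen.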
